A study of Mus musculus with 12 samples.

Results

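The mRNAs of 10 genes for centrins and acentriolar spindle pole proteins were followed through the polysome and RNP (messenger ribonucleoprotein) pools of GV-stage oocytes from WT and *Lsm14b*-KO mice. The members were the rows of the deposited FPKM table with the symbols *Cetn2*, *Cetn3*, *Pcnt*, *Cep192*, *Cdk5rap2*, *Nedd1*, *Tubg1*, *Plk4*, *Tacc3* and *Ckap5*, that is 10 of the 24259 gene symbols in the table. *Cetn2* was chosen for its KO change, which differed between the pools, so its values are given as a description without a test. The other 9 members were tested within the fit across all genes.

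Fully grown oocytes at the germinal vesicle stage were taken from 3-week-old females, 46 h after each had received 5 IU of PMSG, and about 1500 of them were lysed in the presence of cycloheximide and spread over a sucrose gradient. Gradient fractions 1 to 10 were combined as the RNP pool, which holds mRNAs with few or no ribosomes, and fractions 11 to 28 as the polysome pool. KO mice were homozygous for Lsm14b tm1a(KOMP)Mbp, a knockout-first allele with an inserted reporter, and the WT and KO mice shared the C57BL/6J background, the hormone and the cycloheximide. Each genotype and pool had 3 libraries, 12 in all, amplified by Smart-seq2, and because no label ties them to separate mice or collections, the p-values measure only the spread between these libraries.

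*Lsm14b* was at 34.6, 29.3 and 27.4 FPKM in the WT RNP pool and at 11.3, 15.3 and 13.2 FPKM in the WT polysome pool, and no KO library exceeded 0.893 FPKM. The steps between low FPKM values gave a depth of about 4.79 to 7.92 M (mega) fragments per library. At this depth the 12 libraries held an estimated 238 to 1935 fragments of *Cetn2* but only 34.0 to 286 of *Cep192*. In the second KO polysome library, the 10 highest genes took 34.7% of the summed FPKM, mostly through *Mir300*, against 11.6% to 14.7% in the other libraries. The 8 oocyte markers, such as *Gdf9* and *Zp3*, were present in each group. The summed FPKM of 10 granulosa and cumulus cell markers was 28.5 to 75.6 in WT polysome, 81.6 to 103 in KO polysome libraries, and in the RNP pool 31.6 to 35.7 in WT and 42.8 to 64.8 in KO libraries. *Foxl2* among them was at 0 in 3 of the 4 groups, and up to 8 of the 10 markers passed 1 FPKM in some library of a group. The summed level was thus higher in KO than in WT libraries of both pools. Not every marker was, since *Inha* was at 0 to 9.58 FPKM in WT and 39.4 to 51.4 FPKM in KO polysome libraries, whereas *Cyp19a1* was at 19.0 to 62.0 FPKM in WT and 14.6 to 34.5 FPKM in KO polysome libraries. The part of these markers in the KO comparisons below was not tested.

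The meiotic spindle of the mouse oocyte forms without centrioles. Acentriolar microtubule-organizing centres, built on scaffolds such as pericentrin, CEP192 and CDK5RAP2, nucleate microtubules through gamma-tubulin ring complexes, which NEDD1 helps to recruit. PLK4 is the kinase known from centriole duplication, centrins are small calcium-binding proteins of centrioles with further roles in the nucleus, and TACC3 and CKAP5 act together on spindle microtubules. In oocytes TACC3 is also a component of a liquid-like domain around the meiotic spindle.

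Fully grown oocytes transcribe little, and the 3′ ends of stored mRNAs carry letters that serve polyadenylation and translational control. The last 100 bases of the annotated 3′ UTRs were therefore searched on the sense strand for the polyadenylation signals AATAAA and ATTAAA and for TTTTAT and TTTTAAT, forms of the cytoplasmic polyadenylation element, and none of these overlaps another in the stretches shown. A signal was found in 9 of the 10 members, all except *Tacc3*, and in 80.3% of 17636 mouse transcripts that have a RefSeq mRNA and a 3′ UTR of at least 100 bases. TTTTAT or TTTTAAT was found in 3 members, *Pcnt*, *Plk4* and *Ckap5*, and in 18.1% of those transcripts. Stretches of 30 bases around the most distal signal are shown for these 3 members and, for contrast, for *Cetn2* and *Tubg1*, which have no such element there. Capitals mark the elements and signals, and positions are those of GRCm38 (mm10) with transcripts from GENCODE M21.
*Pcnt*, chr10:76351274-76351303, minus strand: ctTTTTATtggcaaaacaAATAAAactatg
*Plk4*, chr3:40816838-40816867, plus strand: tgcaaatacaTTTTATaaAATAAAcacagt
*Ckap5*, chr2:91620626-91620655, plus strand: atttaagagacTTTTATaAATAAAgtttgc
*Cetn2*, chrX:72913579-72913608, minus strand: tttgtcatcggcctatggATTAAAaaaggg
*Tubg1*, chr11:101126378-101126407, plus strand: ctgagagtatttatctttAATAAAgcactg
The element shown lay 10 bases before the signal in *Pcnt*, 2 bases in *Plk4* and 1 base in *Ckap5*. The last 100 bases of *Plk4* hold 3 copies of TTTTAT, of which the stretch shows 1. These annotated ends may not be the ones that oocytes use.

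Peak sequences from LSM14B LACE-Seq, which maps where an RNA-binding protein is crosslinked to RNA, were at hand for *Tacc3*, *Pcnt* and *Cdk5rap2* from a list held only in part. Of the complete sequences, 3 of *Tacc3* and 11 of *Pcnt* each matched 1 place in the transcript, and none of the 10 of *Cdk5rap2* matched. Those of *Tacc3* lay in the 5′ UTR (2) and the coding region (1), and those of *Pcnt* in the coding region (7) and the 3′ UTR (4). The short ones of *Tacc3* and of the *Pcnt* 3′ UTR are shown because both mRNAs were higher in the polysome pool of KO oocytes than in their RNP pool.
*Tacc3*, 5′ UTR, chr5:33658572-33658591, plus strand: cgtagcggacgacgttccgg
*Tacc3*, 5′ UTR, chr5:33658612-33658631, plus strand: ttggggttccttcggctggg
*Tacc3*, coding region, chr5:33661252-33661271, plus strand: cgtgcccaatgaaaagagtt
*Pcnt*, 3′ UTR, chr10:76351716-76351735, minus strand: aagtccttgcggctcttaac
*Pcnt*, 3′ UTR, chr10:76351616-76351635, minus strand: agtggtgacaccagccccta
*Pcnt*, 3′ UTR, chr10:76351376-76351395, minus strand: tgtattttttaaagactgtt
Only these letters were used, and no level of binding.

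By level, *Cetn2* stood above the other members. In the WT polysome pool its mean was 222 ± 7.53 FPKM (SD, n = 3), followed by *Tacc3* at 64.4 ± 11.9, *Plk4* at 58.4 ± 13.1 and *Nedd1* at 52.6 ± 12.5 FPKM. The libraries of *Tacc3*, *Plk4* and *Nedd1* overlapped with each other. *Cetn3* at 33.0 ± 8.64 and *Pcnt* at 32.1 ± 3.21 FPKM also overlapped, as did *Tubg1* at 19.0 ± 4.87 and *Ckap5* at 13.8 ± 4.78 FPKM. *Cep192* at 3.23 ± 1.35 and *Cdk5rap2* at 2.68 ± 1.39 FPKM were lowest and overlapped with each other. FPKM is scaled to transcript length but not to other differences between transcripts, so the order of genes by level is approximate. It is also a share of each library, so a change in the RNA per oocyte and a change in the number of oocytes that held it cannot be told apart.

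**Figure D1:**
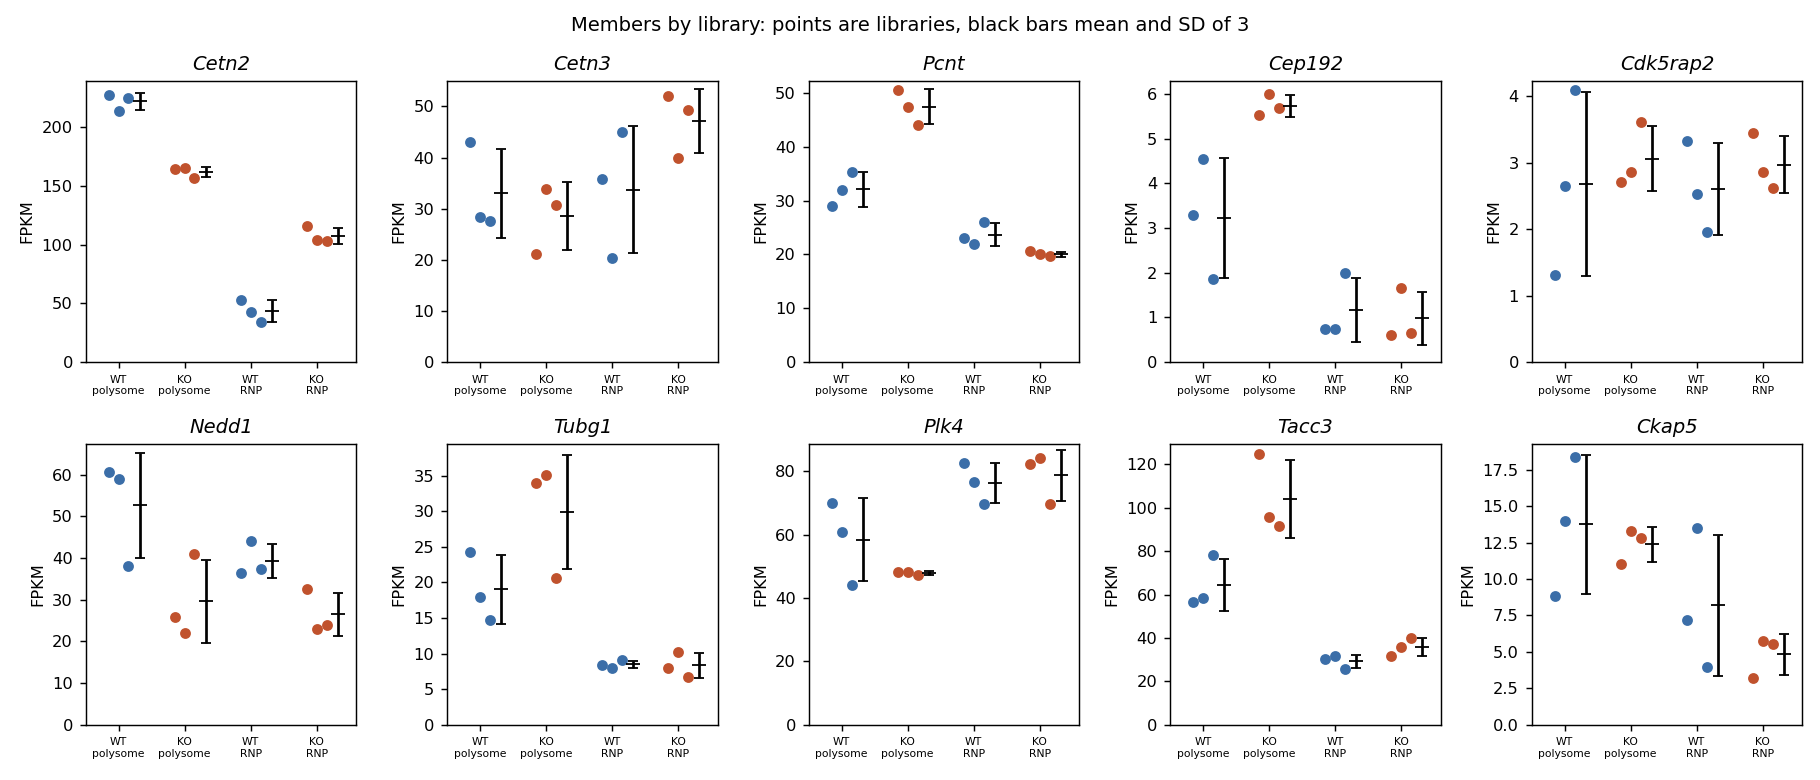
FPKM of the 10 members (y axis, a scale of its own for each gene, from 0) in each of the 12 libraries, grouped by genotype and pool (x axis). Points are libraries (WT blue, KO orange) and black bars the mean and SD of 3, and in KO oocytes *Cetn2* lies lower than WT in the polysome pool (157 to 165 FPKM) and higher in the RNP pool (103 to 115 FPKM), while *Pcnt* lies the other way.

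*Cetn2* lies on chromosome X of GRCm38 from 72913532 to 72918411. In the polysome pool it was at 227, 213 and 225 FPKM in WT and at 164, 165 and 157 FPKM in KO libraries. In the RNP pool it was at 53.0, 42.7 and 34.1 FPKM in WT and at 115, 104 and 103 FPKM in KO libraries. All KO libraries lay below all WT libraries in the polysome pool and above all of them in the RNP pool. The mean in KO was 0.730 of that in WT in the polysome pool and 2.48-fold higher in the RNP pool, or a difference of -0.45 (SE 0.12) and 1.31 (SE 0.17) on the log2(FPKM + 1) scale. The polysome mean was 5.13 times the RNP mean in WT and 1.51 times in KO oocytes, with no overlap between the pools in either genotype. These are the values that chose *Cetn2*.

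The 3 genes whose levels followed those of *Cetn2* most closely were *Med28* (a Mediator subunit, Pearson r = 0.987), *Tmed9* (a cargo receptor of the early secretory pathway, r = 0.968) and *Ndufa7* (a subunit of respiratory complex I, r = 0.967). The likeness was taken on log2(FPKM + 1) over the 12 libraries, among the 6677 genes that averaged 5 FPKM or more, and 1.02% of them had an r above 0.9. In the RNP pool *Tmed9* was at 13.5 to 22.3 FPKM in WT and 50.8 to 52.4 FPKM in KO libraries. In the polysome pool its genotypes overlapped, with 116 to 126 FPKM in WT and 107 to 147 FPKM in KO. *Med28* and *Ndufa7* showed the direction of *Cetn2* in both pools without overlap. *Med28* was at 269 to 293 FPKM in WT and 227 to 268 FPKM in KO polysome libraries. Its RNP libraries were at 121 to 153 FPKM in WT and 205 to 224 FPKM in KO. *Ndufa7* was at 47.4 to 52.3 FPKM in WT and 34.4 to 44.8 FPKM in KO polysome libraries. Its RNP libraries were at 14.9 to 20.0 FPKM in WT and 24.1 to 33.0 FPKM in KO. The 12 libraries form 4 groups that differ in pool and genotype, so this likeness is a description of the groups.

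*Cetn3*, the other centrin gene well above the detection limit, also had a lower KO mean in the polysome pool and a higher one in the RNP pool, but its libraries overlapped. Its polysome levels were 42.9, 28.3 and 27.6 FPKM in WT and 21.1, 33.9 and 30.8 FPKM in KO libraries. Its RNP levels were 35.8, 20.3 and 45.1 FPKM in WT and 52.0, 40.0 and 49.2 FPKM in KO libraries. The genotypes overlapped in both pools. *Cetn4* had 0 to 6.79 FPKM over the libraries, and *Cetn1*, the copy closest to *Cetn2* with 78.3% identical coding bases, had at most 0.656 FPKM and was at 0 in the other libraries except 1. No stretch of 30 bases was shared by the *Cetn2* and *Cetn1* transcripts.

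The first question was whether loss of *Lsm14b* altered the level of these mRNAs in the polysome pool. None of the 9 tested members passed the adjusted threshold of 0.05 in limma (Benjamini-Hochberg over all genes), whereas 10.4% of 9536 genes did, and 3 members had an unadjusted p below 0.05, as did 26.3% of all genes. The median difference, KO minus WT, was 0.21 for the 9 members and 0.10 for all genes on the log2(FPKM + 1) scale. How many of all genes showed no overlap between groups was not counted, in this or the later comparisons.

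*Tacc3* came nearest to the threshold. It was at 56.7, 58.3 and 78.1 FPKM in WT and at 125, 95.8 and 91.5 FPKM in KO polysome libraries. All KO libraries lay above all WT libraries, with a difference of 0.68 (SE 0.20, limma adjusted p = 0.0614, 95% interval 0.24 to 1.13). Without the third WT library the difference was 0.83 and passed (adjusted p = 0.0435), and it also passed with a filter at 5 FPKM (adjusted p = 0.0493). Without the second KO library, the one with high *Mir300*, it was 0.74 (adjusted p = 0.143 in limma).

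*Pcnt*, which encodes pericentrin, had 29.0, 31.9 and 35.4 FPKM in WT and 50.7, 47.5 and 44.2 FPKM in KO polysome libraries. The genotypes did not overlap here either, and the difference was 0.55 (SE 0.19, adjusted p = 0.110 in limma). *Nedd1* had the lower KO values, with 60.7, 58.9 and 38.1 FPKM in WT and 25.9, 22.0 and 40.9 FPKM in KO polysome libraries. The third KO library lay above the third WT library, so the groups overlapped, and the difference was -0.83 (SE 0.29, adjusted p = 0.111 in limma). *Cep192* was at 3.29, 4.55 and 1.85 FPKM in WT and at 5.53, 6.01 and 5.69 FPKM in KO polysome libraries. Its KO libraries were all above the WT libraries, but the spread among the WT libraries was wide and the difference of 0.72 (SE 0.43) gave an adjusted p of 0.330 in limma.

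The remaining members overlapped between genotypes in the polysome pool. *Tubg1* (gamma-tubulin) differed by 0.62 (95% interval -0.08 to 1.31), *Cdk5rap2* by 0.21 (-0.85 to 1.27), *Ckap5* by -0.09 (-0.88 to 0.70), *Cetn3* by -0.20 (-0.83 to 0.44) and *Plk4* by -0.25 (-0.73 to 0.22). These intervals leave room for sizeable differences in either direction for *Cdk5rap2* and *Ckap5*. *Tubg2*, the second gamma-tubulin gene, rose in KO polysomes by 0.65 (SE 0.16, adjusted p = 0.0371 in limma), from 75.8, 84.5 and 74.9 FPKM to 145, 117 and 112 FPKM. The coding bases of *Tubg1* and *Tubg2* are 93.3% identical, with a shared run of 164 bases and 416 of the 1773 stretches of 30 bases in the *Tubg1* transcript also in *Tubg2*. Of the stretches as long as a read (150 bases), 15 of 1653 are shared. Reads within a shared stretch cannot be placed on 1 copy, and what part such reads had in the level of the weaker *Tubg1* was not tested.

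In the RNP pool, none of the 8 members that passed the filter on low values was called between KO and WT, against 20.7% of 9931 genes, and 1 had an unadjusted p below 0.05 in limma, against 34.1% of all genes. The median difference was 0.00 for these 8 members and 0.05 for all genes. That member was *Nedd1*, with 36.5, 44.0 and 37.2 FPKM in WT and 32.5, 23.0 and 23.9 FPKM in KO libraries. All KO libraries lay below all WT libraries, with a difference of -0.56 (SE 0.19, adjusted p = 0.0644), and with a filter at 5 FPKM the adjusted p was 0.0497 in limma. *Nedd1* values were thus lower in KO by a like amount in both pools without passing in either.

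*Tacc3* had 30.3, 31.4 and 25.7 FPKM in WT and 31.8, 35.9 and 39.8 FPKM in KO RNP libraries. The KO libraries were again above the WT libraries, by 0.29 (SE 0.17, adjusted p = 0.273 in limma). *Pcnt* had 23.1, 21.9 and 26.1 FPKM in WT and 20.6, 20.0 and 19.6 FPKM in KO RNP libraries. Here the KO libraries were all below the WT libraries, the opposite of the polysome pool, by -0.23 (SE 0.18, adjusted p = 0.416 in limma).

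*Plk4*, the centriole duplication kinase, showed little difference in the RNP pool. Its levels were 82.5, 76.7 and 69.7 FPKM in WT and 82.4, 84.1 and 69.6 FPKM in KO libraries, with a difference of 0.04 and a 95% interval of -0.26 to 0.34. *Tubg1* differed by -0.04 (-0.64 to 0.56), *Cdk5rap2* by 0.15 (-0.62 to 0.92), *Cetn3* by 0.53 (-0.08 to 1.14) and *Ckap5* by -0.55 (-1.51 to 0.41), and their genotypes overlapped. *Cep192* did not pass the filter in this pool, with 0.741, 0.735 and 1.98 FPKM in WT and 0.601, 1.66 and 0.658 FPKM in KO libraries.

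**Figure D2:**
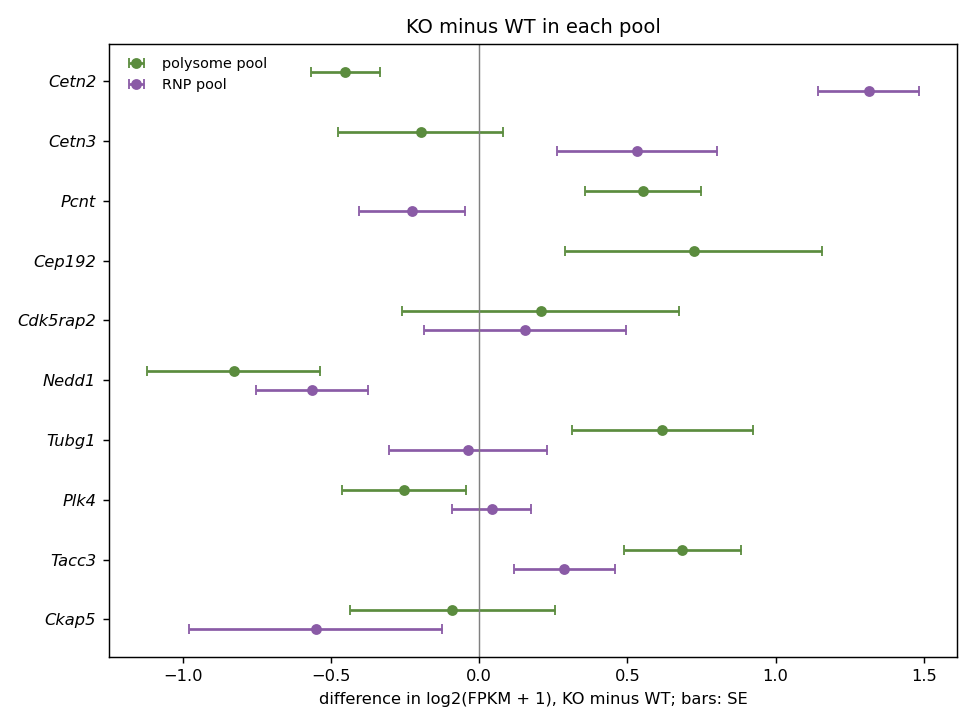
Difference in log2(FPKM + 1), KO minus WT (x axis), of each member (y axis) in the polysome pool (green) and the RNP pool (purple), with bars of 1 SE. *Cetn2* lies at -0.45 and 1.31 and *Pcnt* at 0.55 and -0.23, while *Tacc3* and *Nedd1* lie on the same side in both pools, and *Cep192* has no point in the RNP pool, where it was not tested.

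The pools were then compared within each genotype. In WT oocytes 1 of the 9 tested members, *Tacc3*, was higher in the polysome pool and none was lower, against 14.7% of 9574 genes called, and 2 members had an unadjusted p below 0.05, against 29.0% of all genes. *Cep192* passed the filter on low values through the polysome pool only, here and in KO oocytes. The median polysome minus RNP difference was 0.40 for the 8 members without it and -0.09 for all genes. *Tacc3* differed by 1.11 (SE 0.21, adjusted p = 0.0107 in limma), or 2.21-fold in mean FPKM, with all polysome libraries above all RNP libraries. This call was lost when the libraries of any 1 WT replicate number were left out, at adjusted p = 0.0696, 0.0600 and 0.0914 in limma without numbers 1, 2 and 3, with differences of 1.22, 1.22 and 0.88.

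*Tubg1* was next in WT, with 24.3, 18.0 and 14.8 FPKM in the polysome and 8.39, 7.96 and 9.04 FPKM in the RNP pool. The pools did not overlap, and the difference of 1.05 (SE 0.32) gave an adjusted p of 0.0605 in limma, which was 0.0427 with a filter at 5 FPKM. *Tubg2* showed a larger polysome skew in WT, 1.84 (SE 0.24, adjusted p = 0.00169 in limma). *Cep192* differed by 0.97 (SE 0.50), *Ckap5* by 0.76 (SE 0.48), *Pcnt* by 0.42 (SE 0.23) and *Nedd1* by 0.39 (SE 0.24), none past the threshold. *Plk4* had the lower polysome values, with a difference of -0.40 (SE 0.21), and *Cetn3* and *Cdk5rap2* lay at 0.01 (SE 0.33) and -0.02 (SE 0.49).

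In KO oocytes 6 of the 8 members other than *Cep192* differed between the pools, 4 higher and 2 lower in the polysome pool, against 29.2% of 9851 genes called. The median difference was 0.66 for these 8 members and -0.04 for all genes. The 4 members higher in the polysome pool were the scaffold gene *Pcnt*, *Tubg1*, and the partners *Tacc3* and *Ckap5*. The 2 lower ones were *Plk4* and *Cetn3*. With *Cep192*, 7 of the 9 were called, but the filter favours a difference in a gene that enters only through the pool where it is high. *Pcnt*, *Tubg1* and *Tacc3* were called with the KO libraries of any 1 number left out.

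*Tacc3* was 2.90-fold higher in the polysome than in the RNP mean of KO oocytes, with a difference of 1.50 (SE 0.16, adjusted p = 0.000172 in limma). *Pcnt* was 2.37-fold higher, with a difference of 1.20 (SE 0.15, adjusted p = 0.000453 in limma). *Tubg1* was at 34.0, 35.1 and 20.7 FPKM in the polysome and at 7.93, 10.3 and 6.74 FPKM in the RNP pool, with a difference of 1.71 (SE 0.27, adjusted p = 0.00137 in limma). The polysome libraries of all 3 genes lay above their RNP libraries.

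*Cep192* was 5.90-fold higher in the KO polysome than in the KO RNP mean, the widest fold among the members, from RNP levels of about 1 FPKM. Its difference on the log2(FPKM + 1) scale was 1.81 (SE 0.35), and the added 1 understates the change of so low a gene. Its values are a description here, since the filter chose it by its polysome level. *Ckap5*, which encodes a microtubule polymerase, was at 11.0, 13.3 and 12.8 FPKM in the polysome and at 3.21, 5.73 and 5.57 FPKM in the RNP pool. These pools did not overlap either, with a difference of 1.23 (SE 0.28, adjusted p = 0.0111 in limma). The *Ckap5* call was lost without KO numbers 1, 2 or 3, at adjusted p = 0.0511, 0.0626 and 0.0609 in limma, with differences of 1.08, 1.29 and 1.30.

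*Plk4* was at 48.4, 48.3 and 47.2 FPKM in the KO polysome pool, below each of its KO RNP libraries, with a difference of -0.70 (SE 0.13, adjusted p = 0.00400 in limma). The adjusted p was 0.0522 in limma without the second KO libraries, among them the one with high *Mir300*. *Cetn3* was 1.65-fold higher in the RNP than in the polysome mean of KO oocytes, with a difference of -0.72 (SE 0.21, adjusted p = 0.0288 in limma) and no overlap. Its call was lost without KO numbers 1 and 3, at adjusted p = 0.162 and 0.117 in limma with differences of -0.45 and -0.75. It was also lost without the filter on low values (adjusted p = 0.0629) and without an intensity trend (adjusted p = 0.0689) in limma. The centrins thus stood on opposite sides in KO oocytes, since *Cetn2* was 1.51-fold higher in the polysome mean.

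*Nedd1* and *Cdk5rap2* did not pass in KO oocytes. *Nedd1* differed by 0.12 (95% interval -0.44 to 0.69) and *Cdk5rap2* by 0.03 (-0.68 to 0.75). *Cdk5rap2*, the activator of gamma-tubulin ring complexes, ranged from 1.32 to 4.09 FPKM over the 12 libraries and was not called in any of the comparisons.

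**Figure D3:**
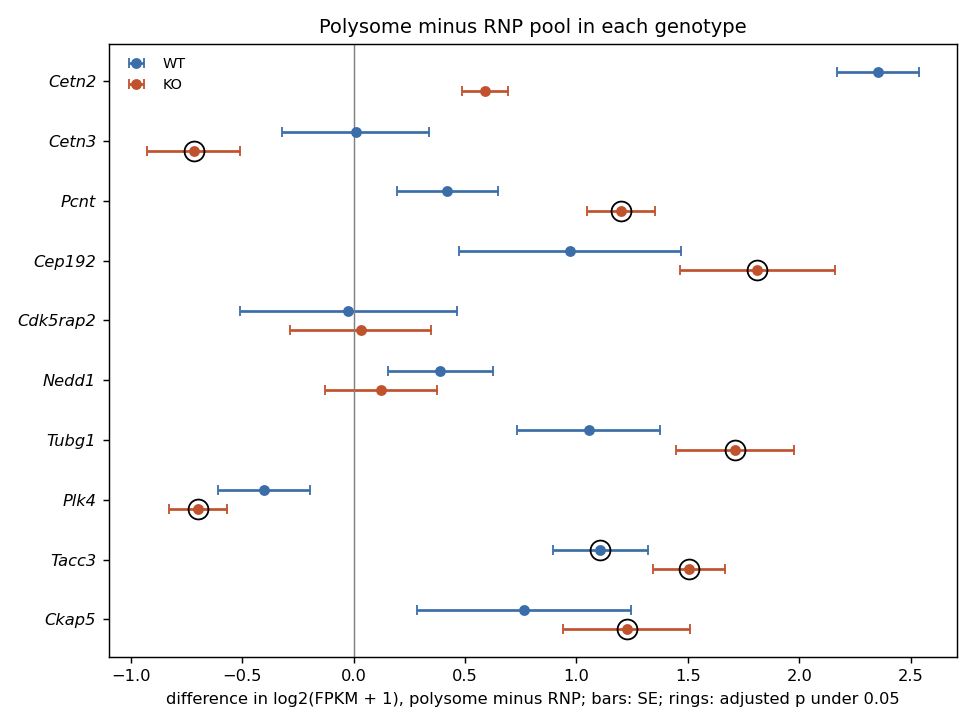
Difference in log2(FPKM + 1), polysome minus RNP pool (x axis), of each member (y axis) in WT (blue) and KO (orange) oocytes, with bars of 1 SE and black rings at an adjusted p under 0.05. *Tacc3* is ringed in both genotypes and 6 other members in KO, among them *Cep192*, which entered through its polysome level only, with *Plk4* and *Cetn3* below 0, though no member passed the test of the difference between genotypes, and *Cetn2*, at 2.35 and 0.59, is not tested.

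More members were called in KO than in WT oocytes, but the genotypes were not shown to differ in this respect. The difference between them is the change of the polysome-to-RNP ratio, tested as the genotype by pool interaction in the fit of the 12 libraries. None of the 9 members passed, against 0.237% of 10949 genes, and only *Pcnt* had an unadjusted p below 0.05 in limma, as did 11.1% of all genes. The ratio of *Pcnt* was higher in KO by 0.78 (SE 0.24, adjusted p = 0.233). The ratio of *Cep192* was higher by 0.84 (SE 0.57), of *Tubg1* by 0.66 (SE 0.40), of *Ckap5* by 0.46 (SE 0.57) and of *Tacc3* by 0.40 (SE 0.26), while that of *Cetn3* differed by -0.73 (SE 0.41). Over 10949 genes, the correlation between libraries of a group was 0.883 to 0.885 for the WT and 0.933 to 0.936 for the KO polysome pool, and 0.907 to 0.932 for the WT and 0.960 to 0.962 for the KO RNP pool. The KO libraries were more alike, and what part this had in the number of calls was not tested.

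A set of 65 other genes of the centrosome and spindle pole, in 5 lists, gave the setting of the members. In the polysome pool 5 of the 57 that passed the filter were higher and 1 was lower in KO, against 10.4% of all genes called in either direction. The augmin subunits *Haus8* and *Haus7* rose by 1.38 (SE 0.16, adjusted p = 0.00277) and 1.54 (SE 0.37, adjusted p = 0.0327). *Xpc*, a DNA damage sensor that binds centrin-2, rose by 1.41 (SE 0.30, adjusted p = 0.0228). *Nin*, which encodes the microtubule anchoring protein ninein, fell by 0.96 (SE 0.25, adjusted p = 0.0470). In place of these 6, 1 listed gene was called without any 1 of the KO libraries, and 2 or 3 without any 1 of the WT libraries.

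In the RNP pool 5 of the 57 were higher and 4 lower in KO, against 20.7% of all genes called. *Cep72* is counted among the 5, but it passed the filter through the KO libraries only, so its call is a description. Its WT libraries were at 0.257 to 0.938 FPKM and its KO libraries at 2.37 to 5.69 FPKM. *Haus8*, *Xpc* and the spindle gene *Ckap2* rose by 1.65 (SE 0.25, adjusted p = 0.00219), 1.27 (SE 0.28, adjusted p = 0.0129) and 0.84 (SE 0.16, adjusted p = 0.00562). *Mzt1*, a small subunit of gamma-tubulin complexes, fell by 1.80 (SE 0.24, adjusted p = 0.00122). *Nin* and the centriole gene *Cep120* fell by 1.14 (SE 0.22, adjusted p = 0.00646) and 0.73 (SE 0.18, adjusted p = 0.0187). *Haus8*, *Xpc* and *Nin* thus passed in the same direction in both pools. With 1 library left out, 6 to 11 listed genes were called in this pool, with 6 without the first or the third KO library. None of 59 passed in the polysome-to-RNP ratio.

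Between the pools of WT oocytes, 8 of 56 listed genes were higher and 1 lower in the polysome pool, against 14.7% of all genes called. Of the 8, 5 belonged to the list of gamma-tubulin complexes and augmin, led by *Haus8* at 2.27 (SE 0.29, adjusted p = 0.00161), *Haus5* at 1.94 (SE 0.53) and *Tubg2*. *Mzt1* of the same list was the lower one, at -1.16 (SE 0.32, adjusted p = 0.0427). In place of these 9, 3 listed genes were called without the libraries of any 1 WT number. *Haus5* is counted, but it passed the filter through the polysome pool only, here and in KO oocytes, so its values are a description. Its lowest RNP library was at 0.888 FPKM in WT and 0.586 FPKM in KO oocytes. In KO oocytes 20 of 58 were higher and 3 lower in the polysome pool, against 29.2% of all genes called. *Haus5* at 2.62 (SE 0.36), again as a description, *Tacc2*, a relative of *Tacc3*, at 2.11 (SE 0.17, adjusted p = 3.24e-05) and *Haus8* at 2.00 (SE 0.12, adjusted p = 6.72e-06) led these. *Cep57* at -0.98 (SE 0.28, adjusted p = 0.0259), *Eny2* at -0.96 (SE 0.19, adjusted p = 0.00476) and *Pcid2* at -0.51 (SE 0.16, adjusted p = 0.0413) were lower, and the last of these, with *Eny2*, belongs to a nuclear mRNA export complex that also holds centrins. Without KO numbers 1, 2 and 3 the listed genes called were 14, 11 and 9 in place of 23.

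The lists differed in where their medians lay. For the spindle pole and liquid-like domain genes the median polysome minus RNP difference was 0.40 in WT and 0.74 in KO oocytes, with 3 and 8 of 15 called higher and none lower. For the gamma-tubulin and augmin genes it was 0.82 and 0.48, and for the pericentriolar scaffold genes 0.51 and 0.35. For the centriole assembly genes, the setting of *Plk4*, it was -0.22 and -0.08, with only *Cep152* called, in KO. For the other centrin genes and partners it was -0.46 and -0.36. *Cep152* passed the filter in KO oocytes through the polysome pool only, with 0.545 FPKM in its lowest RNP library, so its call is a description. Over all genes tested the medians were -0.09 in WT and -0.04 in KO. Of all genes, 763 of 9574 were called higher in the polysome pool in WT and 1523 of 9851 in KO oocytes.

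**Figure D4:**
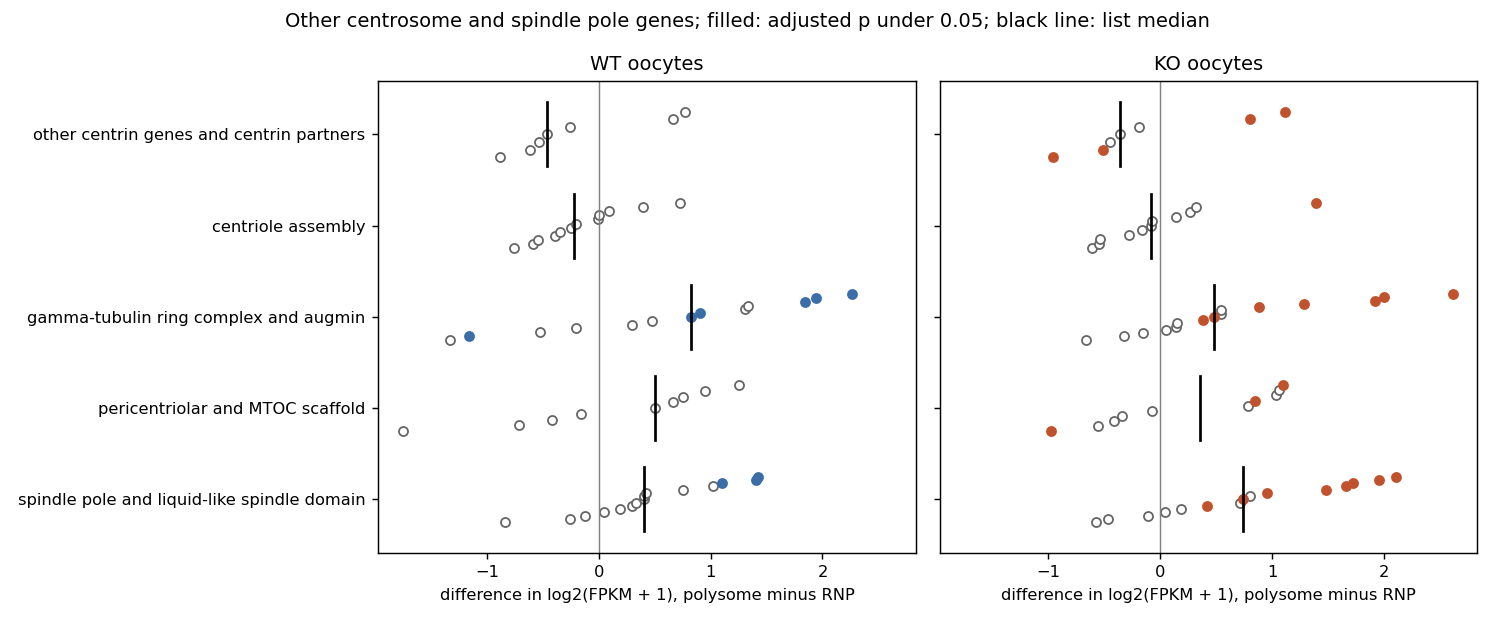
Difference in log2(FPKM + 1), polysome minus RNP pool (x axis), of the other centrosome and spindle pole genes by list (y axis) in WT and KO oocytes. Each point is a gene that passed the filter, filled at an adjusted p under 0.05, and the black lines are list medians, which lie at 0.40 and 0.74 for the spindle pole list and at -0.22 and -0.08 for the centriole assembly list.

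The members also differed in their mRNAs. *Tacc3*, with the shortest 3′ UTR at 157 bases, and *Tubg1*, with 193 bases, lie far below the median of 697 bases over 20484 mouse transcripts with a RefSeq mRNA. *Cdk5rap2* has the longest at 6205 bases, and the start of its row in the authors' table lies 6167 bases inside the annotated gene, at the end that holds this UTR. Coding lengths run from 501 bases in *Cetn3* to 8748 in *Pcnt*. Genes on the opposite strand overlap *Tacc3* (*Tmem129*), *Cetn3* (*Gm17259*) and *Pcnt* (*1700094J05Rik*) in the annotation. The protein-coding *AC141477.1* on the same strand also overlaps *Pcnt*. These overlaps were taken between whole gene spans and not between exons. Whether the authors counted by strand is not given in the sources used here, so reads from any stretch that a pair shares cannot be told apart.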

How the data were processed

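RNA of the polysome and RNP pools from WT and *Lsm14b*-KO oocytes was measured in 12 libraries, grouped by their labels. The authors aligned 150 bp paired reads (mm10, TopHat2 2.0.13) and derived FPKM with Cufflinks 2.2.1, and the deposited FPKM values are scaled to transcript length and mapped fragments. The annotation release is not given in the sources used here. The deposited table also holds log2 fold changes, p-values and q-values of the authors' own comparisons, which were not used. Sources differ on the densest sucrose and on the kit that followed Smart-seq2.

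log2(FPKM + 1) was tested with limma 3.58.1 in R 4.3.3 (empirical Bayes with an intensity trend) on genes with at least 1 FPKM in at least 3 libraries of the comparison, with Benjamini-Hochberg adjustment over all of them at 0.05. Every difference and SE is on this scale, which understates changes of low genes. The members, lists and rules were chosen with earlier results of these data known. Of the listed genes, up to 3 per comparison and direction with the largest change and a mean of at least 5 FPKM were named. *Tubg2* was named as a paralog, and *Cep72*, *Cep152*, *Mir300* and the overlapping genes after their values were seen. Alternatives were pseudocounts of 0.1 and 5, no filter or one at 5 FPKM, quantile normalization, rescaling to the same median, a replicate block, no intensity trend, and each replicate left out (in pool comparisons, from both pools). The count without *Cep192* was added after seeing the data. Depth was estimated from low FPKM steps, taking transcript length minus 200 bases as the effective length. The fit was tested on simulated data, and Python 3.11.15, pandas 2.3.3 and matplotlib 3.10.9 were used.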

Additional observations from a re-analysis of the deposited data

Results flagged for a closer look

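*Cetn2* and *Pcnt* were flagged because every KO library lay on one side of the WT libraries in the polysome pool and on the other side in the RNP pool. The share of all genes with this pattern was not counted. For *Cetn2* the KO minus WT difference in the polysome pool less that in the RNP pool was -1.76 on the log2(FPKM + 1) scale. It chose the members, and the difference was not tested. For *Pcnt* the same quantity was 0.78, and its test as an interaction in limma gave an adjusted p of 0.233, so the pools were not shown to differ. With 3 libraries per group, single libraries were not screened for outliers.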

How the results depend on the processing

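With a filter at 5 FPKM the count of the 9 tested members called between genotypes rose from 0 to 1 for polysome libraries (*Tacc3*). It rose likewise for RNP libraries (*Nedd1*), and from 1 to 2 between the WT pools (*Tubg1* added). The share of all genes called rose too, from 10.4%, 20.7% and 14.7% in these 3 comparisons. KO and WT then differed for 1005 of 6708 genes among polysome libraries and for 2021 of 6729 among RNP libraries. Between the WT pools 825 of 6800 genes were higher and 679 lower. The rise was thus not confined to the members. With each replicate left out the count of members called was 0 to 1 in the polysome pool, and it was 0 for the RNP pool, the ratio and the WT pools. Between the KO pools it was 5, each time with *Cep192*, which entered through its polysome level only.

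Differences near 0 changed sign. With each replicate left out, those in the polysome pool ran from -0.33 to 0.0030 for *Cetn3*, -0.091 to 0.48 for *Cdk5rap2* and -0.35 to 0.13 for *Ckap5*. In the RNP pool they ran from -0.19 to 0.086 for *Tubg1* and -0.020 to 0.13 for *Plk4*, and *Tubg1* came to 0.018 when rescaled and 0.027 with quantile normalization. In the ratio *Cdk5rap2* ran from -0.39 to 0.46 and came to -0.057 with quantile normalization. Between the WT pools *Cetn3* ran from -0.21 to 0.36 and came to -0.0048 with quantile normalization, and *Cdk5rap2* ran from -0.43 to 0.42 and came to 0.0034 with a pseudocount of 5, 0.0048 when rescaled and 0.14 with quantile normalization. Between the KO pools *Cdk5rap2* ran from -0.13 to 0.18 and *Nedd1* from -0.19 to 0.34. None of these differences was called, and the cause was not tested. As a description of the values that chose it, *Cetn2* kept its direction in every alternative, with a ratio difference of -1.93 to -1.60.

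Of the other listed genes, 6 were called in the polysome pool against 2 without a filter or without an intensity trend, and 9 between the WT pools against 5 and 4. Over all genes, 989 calls in the polysome pool became 545 and 508, 1406 between the WT pools became 728 without the trend, and 26 in the ratio became 6 without it. Without 1 KO library number they were 317 to 533 in the polysome pool, 1239 to 1274 in the RNP pool in place of 2057, 1655 to 2065 between the KO pools in place of 2881, and 0 in the ratio in limma, where 875 to 905 genes had an unadjusted p below 0.05. Without 1 WT number they were 469 to 543 between the WT pools and 12 to 24 in the ratio, with 12 without the second.

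The replicate numbers were not shown to pair the libraries, since the 12 correlations between same-numbered libraries were -0.021 to 0.026 and 0 exceeded 0.1. With the replicate block the members called stayed at 0, 0, 0, 1 and 7 in the 5 comparisons, *Cep192* being among the 7. The listed genes called in the polysome pool went from 6 to 1, and the genes called in the ratio from 26 to 11.

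Depth limits *Cep192* most, with 34.0 estimated fragments in a library, and *Cetn1* and *Cetn4* were too low to follow.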
